A study of Mus musculus with 2 samples.

Results

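Thick ascending limb (TAL) cells were examined in kidneys of mice collected 14 days after 25 minutes of unilateral ischemia. Members were barcodes that passed the cell filters and held at least 3 UMIs (unique molecular identifiers, each 1 captured transcript) and 2 UMIs per 10000 of *Slc12a1*, at least 10 per 10000 of *Umod*, fewer *Slc12a3* than *Slc12a1* UMIs, fewer than 5 UMIs of *Havcr1* and *Krt20* together and none of *Ptprc*. This rule found 547 cells among 14910 kept barcodes, 276 of 7086 in the Cre- library and 271 of 7824 in the library labelled PHDTiEC. The PHDTiEC mouse carried Cdh5-CreERT2, a tamoxifen-dependent recombinase driven by an endothelial promoter, and was homozygous for floxed alleles of *Phd1* (Phd1f/f), *Phd2* (Phd2f/f) and *Phd3* (Phd3f/f), the oxygen sensors encoded by *Egln2*, *Egln1* and *Egln3*, and the control mouse was Cre-. Mice were 8 to 10 weeks old and both genotypes received 4 tamoxifen injections of 3 mg after the ischemia, so the control had the drug and the injury but not the recombinase. The driver targets endothelial cells, so TAL cells themselves should keep the floxed genes. Each genotype was 1 library, so no test between genotypes was possible. Intervals below are exact 95% intervals (Clopper-Pearson for shares and ratios, Poisson for levels) that cover counting error only and say nothing of the spread between mice.

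The TAL is the segment of the loop of Henle that takes up salt without water. The apical cotransporter NKCC2, encoded by *Slc12a1*, brings in sodium, potassium and chloride, the potassium channel ROMK (*Kcnj1*) returns potassium to the lumen, and basolateral channels and pumps carry the salt to the blood side. The resulting voltage drives sodium, calcium and magnesium between the cells through pores built of claudins. The segment also secretes uromodulin (*Umod*), the most abundant protein of normal urine, and ends at the macula densa, the plaque of cells that senses salt delivery.

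Members were chosen by the measured UMIs of *Slc12a1*, *Umod*, *Slc12a3*, *Havcr1*, *Krt20* and *Ptprc*, so the values of these genes are a description and no finding. Levels are counts per 1000000 UMIs (CPM) of the summed members. *Slc12a1* stood at 2357 CPM (95% interval 2320 to 2395) in the Cre- members and at 3023 (2985 to 3061) in the members of the library labelled PHDTiEC. Single members ranged from 2.18 to 166 *Slc12a1* UMIs per 10000 in Cre- and from 2.06 to 113 in PHDTiEC. *Umod* medians were 124 and 88.6 UMIs per 10000, with the 10th and 90th percentiles at 32.4 and 225 in Cre- and at 22.8 and 196 in PHDTiEC. Just inside the *Umod* limit, at 10 to 20 per 10000, lay 15 Cre- and 18 PHDTiEC members with median *Umod* of 14.6 and 12.9. Just outside it, at 5 to 10 per 10000, lay 7 and 15 barcodes with medians of 7.45 and 6.98.

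**Figure D1:**
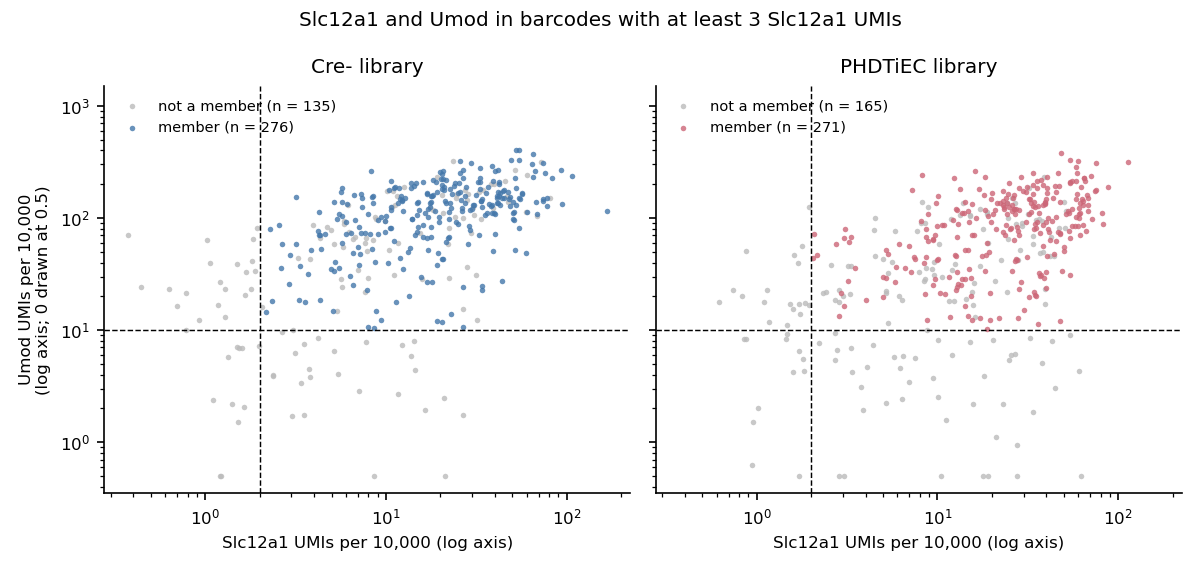
Each point is a kept barcode with at least 3 *Slc12a1* UMIs, placed by its *Slc12a1* and *Umod* UMIs per 10000 (both axes logarithmic), with members colored and the limits of 2 and 10 per 10000 dashed. The 276 Cre- and 271 PHDTiEC members fill the upper right area, and the gray points there failed another condition, mostly a *Ptprc* UMI.

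Genes that the rule did not use bore out the label. In the Cre- members *Cldn16* stood at 148 CPM, *Cldn19* at 219 and the transcription factor *Irx1* at 137. The same genes stood at 147, 205 and 138 in PHDTiEC. After each member was thinned to 2000 UMIs, *Cldn16* was seen in 23.2% of Cre- members (18.3 to 28.6) and 27.3% of PHDTiEC members (22.1 to 33.0), against 0.295% and 0.445% of macrophages thinned the same way. Without thinning these shares were 74.6% and 78.6%, against 1.60% and 2.26% of macrophages. *Cldn10* was seen in 56.2% and 56.5% of thinned members and in 1.01% and 1.71% of thinned macrophages. *Umod* itself was seen in 10.7% and 6.87% of thinned macrophages, the level seen in a cell type that should lack this gene.

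Against distal convoluted tubule, principal and proximal tubule cells of the same libraries, the genes most particular to the members in both libraries after *Slc12a1* itself were *Eprn*, *Slc5a1*, *Irx2*, *Irx1* and *Cldn16*. *Slc5a1*, a sodium-glucose cotransporter, stood at 166 and 158 CPM, and no other tubule type exceeded 7.16. *Irx2* stood at 147 and 145, and no other tubule type exceeded 1.46. *Olfm4*, *Gabrp*, *Sim2* and *Foxc1* were among the next genes, with members at least 2.83 on the log2 scale above the highest other type in each library, no type being set below 3 UMIs. These ratios describe the gated cells and carry no test.

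TAL cells made up 3.90% (3.46 to 4.37) of kept barcodes in Cre- and 3.46% (3.07 to 3.89) in PHDTiEC, a log2 ratio of -0.17 (-0.42 to 0.08). Among barcodes without *Ptprc* UMIs the shares were 8.87% (7.89 to 9.92) and 8.07% (7.17 to 9.04). The intervals overlapped in both denominators. With members of at most 30000 UMIs the log2 ratio was further below 0, as given with the processing alternatives below. Above that depth lay 75 Cre- and 114 PHDTiEC members. PHDTiEC members held more UMIs, with medians of 16206.5 in Cre- and 23526 in PHDTiEC and sums of 6437389 and 7970847. The medians of all kept barcodes were closer, at 9339 and 9524.5. Mitochondrial transcripts made up 9.66% of the Cre- and 6.49% of the PHDTiEC members' UMIs. Across libraries 17 kept barcodes were shared, none of them a member in both.

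Of the floxed genes in TAL cells, *Egln1* was close between libraries. *Egln1* (PHD2) stood at 50.3 CPM (45.0 to 56.1) in Cre- and 54.8 (49.8 to 60.2) in PHDTiEC, a log2 ratio of 0.12 (-0.09 to 0.34). *Egln2* (PHD1) stood at 40.5 and 53.6, a log2 ratio of 0.40 (0.18 to 0.63). *Egln3* (PHD3) was under the limit of 100 UMIs used below, with 16 and 36 UMIs in all members together (0.86, -0.02 to 1.81). In endothelial barcodes, the targeted cells, *Egln1* stood at 67.5 CPM in Cre- and 174 in PHDTiEC, *Egln2* at 35.4 and 34.1, and *Egln3* at 23.0 and 130. The 3′ tags counted here do not show whether an exon was removed, so these levels do not check the genotype labels.

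Between the 2 libraries, 9592 genes were measured in TAL cells (at least 100 UMIs over both). Of these, 3.59% (344) were at least 1.5-fold higher and 1.01% (97) at least 1.5-fold lower in the library labelled PHDTiEC. The median gene stood 0.11 higher on the log2 scale, a shift of the whole scale against which the medians below are to be read. With TMM factors, which set this shift near 0, 207 genes were higher and 164 lower, so the share of higher calls went from 78.0% to 55.8%. Of the higher genes named from the lists below, *Cldn7*, *Ednrb*, *Cdkn1a*, *Vim*, *P4ha2*, *Herpud1* and *Per1* were under 1.5-fold with those factors. Lower calls were gained with them. Hormone receptors went from 0 to 1 lower gene (*Pth1r*) and secreted proteins from 1 to 3 (with *Spp1* and *Clu*). Tubular injury went from 1 to 4, and interferon-induced genes and paracrine ligands from 1 to 3 each. NF-kB and cytokine genes went from 2 to 3 and the mitochondrial genome from 6 to 11. Salt transport and nuclear respiratory chain genes had 1 lower gene each, against none before. In 2 further settings members with mural (vascular smooth muscle and pericyte) or principal cell (collecting duct) markers were left out. The UMI gate, 5 or more UMIs of either marker set, took out 33 Cre- and 89 PHDTiEC members. It depends on depth and on *Hsd11b2*, a principal cell marker that was itself higher in PHDTiEC. The share gate, 5 or more UMIs per 10000 with *Hsd11b2* not used, took out 15 and 25. The lists described next were read against these backgrounds.

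The salt reabsorption machinery was near the shift of all genes. Of 12 measured salt transport genes none passed 1.5-fold, and their median log2 ratio was 0.14, counting *Slc12a1*, a gene of the rule. *Kcnj1* stood at 191 CPM in Cre- and 216 in PHDTiEC (log2 ratio 0.17, 0.07 to 0.28). *Fxyd2*, a small regulator of ion transport, stood at 6571 and 6759 (0.04, 0.02 to 0.06). *Slc12a1* itself had a ratio of 0.36. Of 10 regulators of the cotransporter, among them the kinases *Stk39*, *Oxsr1*, *Wnk1* and *Wnk4*, none passed the fold and the median was 0.15.

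Of 15 measured genes of claudins and divalent cation handling, 1 was past the fold, and the median ratio was 0.01. *Cldn10*, the pore for sodium, stood at 585 CPM (566 to 604) in Cre- and 586 (570 to 603) in PHDTiEC. *Cldn16* and *Cldn19*, which form the pore for magnesium and calcium, had log2 ratios of -0.02 (-0.14 to 0.11) and -0.09 (-0.20 to 0.01). The calcium-sensing receptor *Casr* stood at 41.5 and 40.0. The gene past the fold was *Cldn7*, at 523 (506 to 541) and 798 (779 to 818), a ratio of 0.61 (0.55 to 0.67). It was under the fold in 5 of 12 alternative settings, at 0.57 with a mitochondrial share of at most 20%, 0.55 with at most 30000 UMIs, 0.56 with mitochondrial genes out of the scaling, 0.50 with TMM factors and 0.47 with the UMI gate, and it was 0.62 with the share gate. *Cldn7* was also higher in distal convoluted tubule cells (0.45). *Cldn14*, which blocks the divalent cation pore, was under the limit of 100 UMIs, with 74 UMIs in 21 Cre- members and 11 UMIs in 9 PHDTiEC members. In Cre- 64.9% of the *Cldn14* UMIs were in 3 members.

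Among 13 measured hormone receptors and signalling genes the median ratio was 0.13 and 1 was past the fold. *Pth1r*, the parathyroid hormone receptor, stood at 441 CPM (425 to 457) in Cre- and 316 (304 to 329) in PHDTiEC, a log2 ratio of -0.48 (-0.56 to -0.40). With TMM factors *Pth1r* was past the fold downward and the list had 0 genes higher and 1 lower. *Pth1r* was also lower in distal convoluted tubule cells (-0.56) and close between libraries in proximal tubule cells (0.02). By *Cldn10* level the libraries differed mainly in 76 Cre- and 79 PHDTiEC members with at least 1 *Cldn10* UMI but under 4 per 10000, at 569.5 and 261 CPM (-1.12, -1.26 to -0.99). In members with no *Cldn10* UMI the *Pth1r* ratio was -0.01 (-0.22 to 0.21) and in those with at least 4 per 10000 it was -0.10 (-0.21 to 0.01). After thinning, *Pth1r* was seen in 50.4% (44.3 to 56.4) of Cre- and 37.6% (31.9 to 43.7) of PHDTiEC members, against 2.36% and 2.56% of macrophages. Without thinning the shares were 89.5% and 88.2%, against 9.77% and 10.4%. *Ptger3*, a prostaglandin E2 receptor, stood at 81.6 and 77.0. *Ednrb*, an endothelin receptor, was the gene past the fold, with 57 and 114 UMIs (0.69, 0.22 to 1.18), and 1 member held 28.9% of them in PHDTiEC. Without the top member of each library the ratio was 0.39, and as a mean over members 0.35. It turned to -2.12 with the UMI gate (39 and 7 UMIs left) and -1.62 with the share gate (39 and 15).

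**Figure D2:**
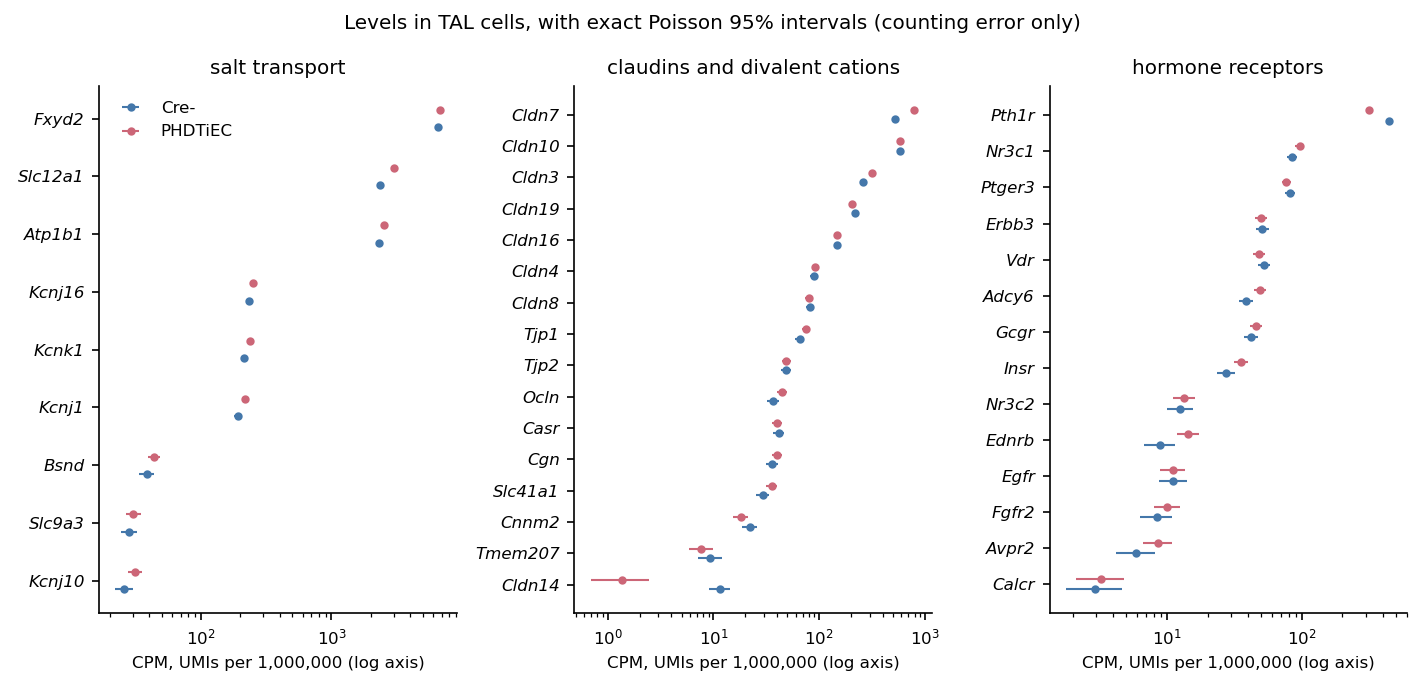
Summed level of each gene in the 276 Cre- and 271 PHDTiEC members in CPM (logarithmic axis), with bars for the exact Poisson 95% interval. The libraries lie close for *Cldn10*, *Cldn16* and *Cldn19* and apart for *Cldn7*, *Cldn14* and *Pth1r*.

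Of 12 measured transcription factors of the loop of Henle and distal nephron, *Pax2* was past the fold upward and *Esrrg* downward. *Pax2* stood at 69.1 and 115 CPM, a ratio of 0.74 (0.57 to 0.90), with 0.50 in distal convoluted tubule cells. *Esrrg*, an estrogen-related receptor of oxidative metabolism, stood at 23.0 and 15.2 (-0.60, -0.96 to -0.24). The *Esrrg* ratio was under the fold at a mitochondrial share of at most 20% (-0.53) and without the *Umod* condition (-0.57). *Irx1* and *Irx2* had ratios of 0.01 and -0.02.

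Secreted proteins were among the abundant transcripts of the members. *Spp1* (osteopontin) took up 4.10% of all UMIs in Cre- members and 2.83% in PHDTiEC members, a log2 ratio of -0.54 (-0.54 to -0.53). Its ratio was -0.67 in distal convoluted tubule and -0.01 in proximal tubule cells. *Clu* (clusterin) stood at 3716 and 2588 CPM (-0.52) and *Lcn2* (NGAL) at 2788 and 2262 (-0.30). *Egf* stood at 150 and 154. Of 12 measured genes in this list, 1 of them *Umod*, a gene of the rule, *Cp* and *Igfbp3* were past the fold upward and the complement gene *C3* downward, with 54.1 and 34.8 CPM. With TMM factors 3 genes were past it downward, *Spp1* and *Clu* among them. In PHDTiEC 3 members held 52.1% of the *Cp* UMIs and 68.0% of the *Igfbp3* UMIs. Both stayed past the fold without the top member of each library (0.82 and 1.26) and as means over members (0.80 and 0.89). After thinning *Cp* was seen in 6.16% of Cre- and 4.43% of PHDTiEC members, and without thinning in 16.7% and 18.5%. *Cp* kept ratios of 1.07 with the UMI gate and 0.81 with the share gate, whereas *Igfbp3* turned to -2.15 (74 and 13 UMIs left) and -0.45 (81 and 70). The *C3* ratio of -0.64 was under the fold in 4 of 12 settings, at -0.28 with at most 30000 UMIs, -0.31 without the *Umod* condition, -0.50 as a mean over members and -0.57 without the top member of each library.

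The tubular injury list held genes of both directions. Of 26 measured genes, 5 were higher past the fold, 1 was lower, and the median ratio was 0.25. The higher genes included the keratin *Krt19* (96.3 and 173 CPM, 0.85, 0.71 to 0.99), the cell cycle inhibitor *Cdkn1a* (136 and 217, 0.68, 0.56 to 0.80) and *Vim* (104 and 163, 0.65). With the UMI gate these ratios were 0.57, 0.33 and -0.04, all under the fold. With the share gate *Krt19* was past it at 0.76, and *Cdkn1a* (0.55) and *Vim* (0.08) were under it, as *Vim* was in 4 further settings. In the same list *Spp1*, *Clu*, *Lcn2*, *Itgb6*, *Mmp7* and *C3* had negative ratios. *Akap12* had the highest ratio (2.26), with 3 members holding 58.0% of its UMIs in PHDTiEC. With the UMI gate the median of the list was 0.06, with 2 genes higher and 2 lower of 24 measured, and with the share gate 0.13, with 3 and 3 of 26. With TMM factors 3 were higher and 4 lower. Of 12 measured p53 target and senescence genes all had ratios above 0, with a median of 0.35, and 1 (*Cdkn1a*) was past the fold. With TMM factors none of them was past it. Of 18 immediate early genes, which dissociation can also induce, 17 had ratios above 0 and none was past the fold. Most genes shared this sign, since the ratios of all measured genes had a 25th percentile of -0.04 and a median of 0.11. *Fos* stood at 2837 and 3677 (0.37) and *Jund* at 1126 and 1606 (0.51). In distal convoluted tubule cells the median of the same list was 0.47.

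Genes of hypoxia and metabolism were read next, since the endothelial oxygen sensors were the targets. Of 21 measured targets of hypoxia-inducible factors, 3 were past the fold upward, none downward, and the median was 0.18. Among these were *Stc2* (26 and 85 UMIs) and *P4ha2* (37 and 70), the latter under the fold in 5 of 12 settings. For *Stc2*, 3 members held 65.9% of the UMIs in PHDTiEC. The classic targets *Vegfa*, *Bnip3l*, *Ddit4* and *Higd1a* had ratios of 0.04, 0.08, 0.10 and 0.07, below the shift of all genes, and *Bnip3* and *Slc2a1* had 0.35 and 0.38. The 19 measured glycolysis genes had a median of 0.04. *Gapdh* stood at 804 and 806 CPM and *Aldoa* at 841 and 810.

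Respiratory chain transcripts had mostly negative ratios. Of 81 measured nuclear subunits none passed the fold, 3 had ratios above 0, and the median was -0.15. *Cox4i1* stood at 1980 and 1728 CPM and *Ndufs6* at 407 and 304. All 13 messenger RNAs of the mitochondrial genome had negative ratios, 6 past the fold, with a median of -0.57 and a range from -0.76 (*mt-Atp6*) to -0.29 (*mt-Nd4l*). The same median was -0.81 in distal convoluted tubule and -0.31 in proximal tubule cells. Limited to barcodes with a mitochondrial share of at most 20%, it was -0.42 in TAL cells, with 2 genes past the fold. The number past the fold was also 2 as means over members, 1 with the UMI gate, 6 with the share gate and 11 with TMM factors. Of 16 fatty acid oxidation genes none was past the fold and 8 had ratios above 0. The mitochondrial share is also a sign of cell quality, and its part in these ratios was not tested.

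Inflammatory genes were read next. The 19 measured NF-kB and cytokine genes had a median of -0.11, against 0.11 for all measured genes. Of the 19, 2 were past the fold, both downward, where 1.01% of all measured genes were lower. These were the chemokines *Ccl20* (35.6 and 5.90 CPM, in 17 and 10 members) and *Cxcl1* (43.3 and 22.3). The *Ccl20* UMIs lay in few members, since 3 members held 69.4% of them in Cre- and 76.6% in PHDTiEC. Of 25 measured interferon-induced genes 1 was higher, 1 lower, and the median was -0.04. The lower gene was the antiviral gene *Rsad2* (24.2 and 6.90, -1.81, -2.28 to -1.36), whose ratios were above 0, from under 100 UMIs, in distal convoluted tubule (19 and 63 UMIs) and proximal tubule cells (21 and 74). In endothelial barcodes *Rsad2* stood at 307 and 415 CPM, and the 6 endothelial markers summed to 145 and 97.6 CPM in the TAL members. Their part in the *Rsad2* ratio was not tested. The higher gene was the GTPase gene *Igtp*, with 53 and 109 UMIs (0.73), which was at 0.14 as a mean over members. *Isg15* was close, at 18.0 and 16.9 CPM. The class II gene *Cd74* (144 and 137) was seen in 16.3% and 14.8% of thinned members, against 90.7% and 89.4% of macrophages. With free RNA subtracted 4 of the 5 measured class II genes were past the fold downward, against none before. The 6 macrophage markers summed to 157 and 259 CPM in the members, and 38 and 63 members held 5 or more of their UMIs. Most of this rise was *Lyz2*, at 73.2 and 169 CPM. *C1qa* (30.3 and 30.7), *C1qb* (28.6 and 31.7) and *C1qc* (18.0 and 19.1) were close between libraries. The part of these 6 markers in the inflammatory and class II ratios was not tested.

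Of the remaining lists, heat shock (12 genes, median 0.08) had no gene past the fold. Endoplasmic reticulum chaperones and the unfolded protein response (20 genes, median 0.17) had *Herpud1* (95.4 and 152 CPM). Antioxidant genes (14, median 0.04) had *Gpx3*, with 879 and 5563 UMIs, of which 1 member held 56.5% in Cre- and 3 members held 46.1% in PHDTiEC. Paracrine ligands (14, median 0.11) had *Ccn2* upward (18.0 and 37.3) and *Edn1*, which encodes endothelin-1, downward (51.6 and 30.5, -0.76), the latter at -0.56, under the fold, without the *Umod* condition. Cytosolic ribosome genes (76, median -0.08) had none. The cell cycle list had 6 genes measured, and its 1 call, *Cenpf*, came from a single PHDTiEC member that held 122 of the 127 UMIs. The same pattern held for *Mki67* (60 of 69) and *Top2a* (56 of 62), so for each gene 1 member held most of the UMIs. Whether it was the same member for these genes is not shown.

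**Figure D3:**
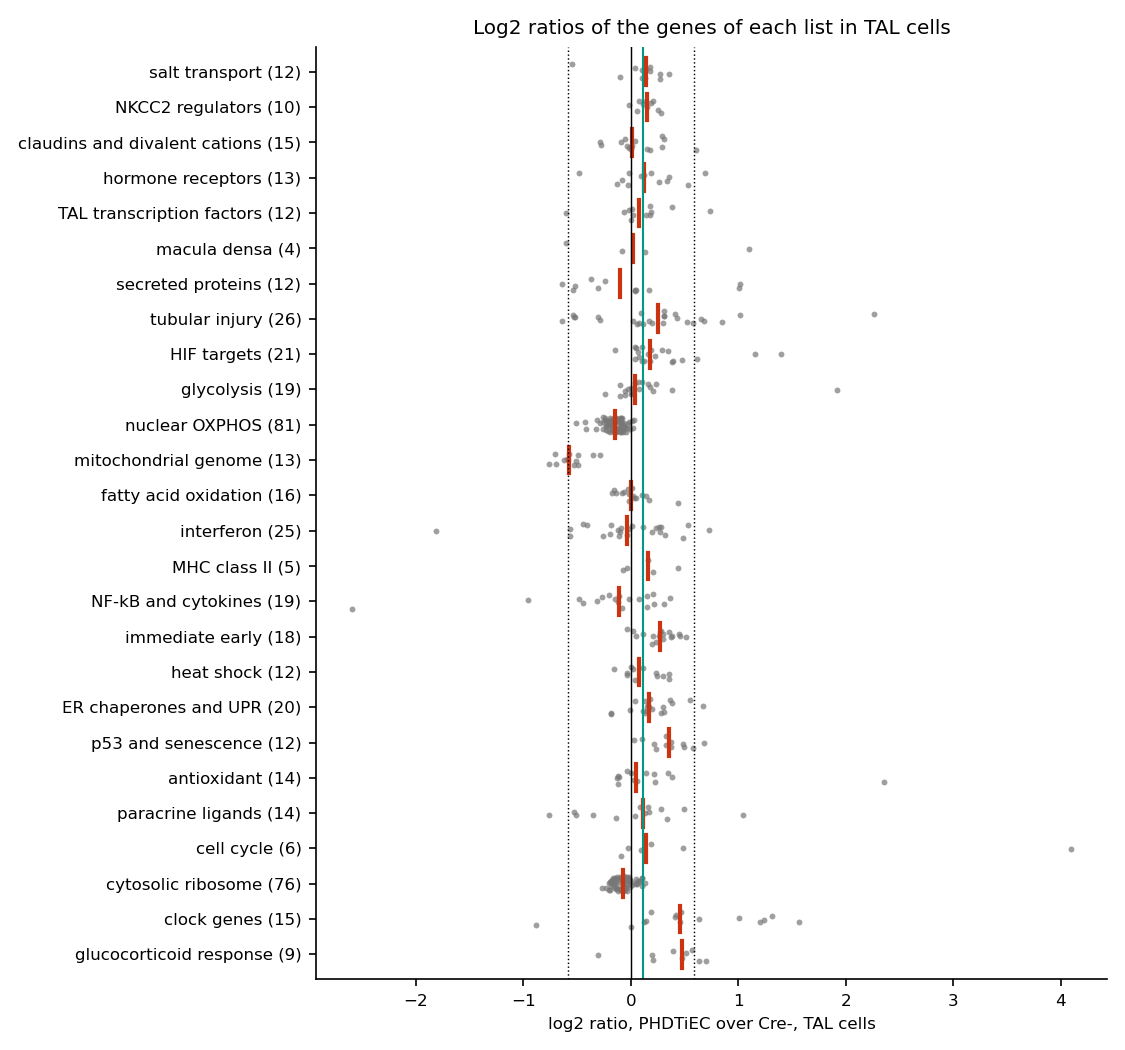
Log2 ratio (PHDTiEC over Cre-) of each measured gene in TAL cells, by list, with the number of genes in brackets and the median as a red bar. The green line marks the median of all 9592 genes (0.11) and the dotted lines 1.5-fold. Mitochondrial genome genes lie to the left of 0, and the clock (0.46) and glucocorticoid (0.47) lists were drawn up after the ratios were seen, so their place is no comparison with the other lists.

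Genes were ranked by the bound of the interval nearest 0. Those seen in under 20 members or with over 20% of their UMIs in 1 member were left out. By this ranking the 12 genes most clearly higher in the library labelled PHDTiEC were *Cpe*, *Palld*, *Tagln*, *Tef*, *Mustn1*, *Hsd11b2*, *Usp2*, *Dbp*, *Sparcl1*, *Folr1*, *Sult1d1* and *Slc6a9*. Their log2 ratios ran from 0.96 (*Sult1d1*) to 2.17 (*Cpe*). *Cpe*, carboxypeptidase E, had 38 UMIs in 22 Cre- members and 212 in 34 PHDTiEC members, and its ratio was -0.80 in distal convoluted tubule cells, from 61 and 37 UMIs. *Palld*, an actin-binding protein, had 38 UMIs in 23 and 204 in 45 members. In the members *Cpe* stood at 5.90 and 26.6 CPM and *Palld* at 5.90 and 25.6. Both were higher in endothelial barcodes, *Cpe* at 104 and 81.8 and *Palld* at 101 and 116. In proximal tubule cells they stood at 49.4 and 42.3 and at 89.15 and 127. The part of RNA from such cells in the *Cpe* and *Palld* ratios was not tested. *Sult1d1*, a sulfotransferase, stood at 64.3 and 125 CPM, *Folr1*, a folate receptor, at 8.54 and 21.7 and *Slc6a9*, a glycine transporter, at 6.21 and 15.4. These 3 were higher in distal convoluted tubule cells too, with ratios of 1.39, 1.28 and 0.96, from 21 and 54 UMIs for *Folr1* and 33 and 68 for *Slc6a9*. *Folr1* and *Sult1d1* are abundant in proximal tubule cells, at 478 and 542 CPM and at 607 and 590. The 8 proximal tubule markers summed to 46.8 CPM in the Cre- and 136 in the PHDTiEC members, and 4 and 16 members held 5 or more of their UMIs. Their part in the *Folr1*, *Sult1d1* and *Gpx3* ratios was not tested.

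*Tagln*, *Mustn1* and *Sparcl1* are known from smooth muscle and other vascular cells, and the mural markers *Rgs5*, *Myh11* and *Acta2* moved with them. The summed level of these 3 markers was 129 CPM in Cre- and 271 in PHDTiEC. In all, 15 Cre- and 18 PHDTiEC members held 5 or more of their UMIs, and those members held 92.8% and 96.9% of all such UMIs. The ratio of *Sparcl1* turned to -1.03 with the UMI gate and -0.77 with the share gate. *Tagln* was at 2.91 with the UMI gate (15 and 88 UMIs left) and 3.78 with the share gate (16 and 259). Before the gates it had 330 and 1098 UMIs. *Mustn1* was at 2.26 (4 and 15 UMIs left) and 2.08 (5 and 25), under the limit of 100 UMIs in both. *Hsd11b2*, the enzyme that keeps cortisol and corticosterone from the mineralocorticoid receptor, is itself a principal cell marker. It stood at 59.7 CPM in 97 Cre- members and at 142 in 166 PHDTiEC members (1.25, 1.08 to 1.42). The 6 principal cell markers summed to 90.6 and 225, and 21 and 79 members held 5 or more of their UMIs. *Hsd11b2* made up most of that sum. Of the other markers, *Fxyd4* had 112 and 423 UMIs and *Aqp2* 18 and 66. With the share gate, which does not use *Hsd11b2*, the *Hsd11b2* ratio was 1.03 (0.82 to 1.24). With the UMI gate, which does use it, the ratio was 0.52 (0.16 to 0.87), under the fold. In principal cells themselves the *Hsd11b2* ratio was 0.03 and in distal convoluted tubule cells 0.72.

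By the same ranking the 12 genes most clearly lower were *Rsad2*, *Il1f6*, *Sprr1a*, *AY036118*, *Gpx6*, *Gm9732*, *Sox17*, *Slc34a2*, *Lbp*, *Aoc1*, *Lars2* and *Serpina10*, with ratios from -1.81 to -0.92. *Il1f6*, which encodes the cytokine IL-36 alpha, had 461 UMIs in 80 Cre- members and 210 in 54 PHDTiEC members (-1.44, -1.69 to -1.20). Its ratio was -0.87 in distal convoluted tubule cells. *Sprr1a*, a cornified envelope protein also known as an injury gene, stood at 200 and 82.3 CPM (-1.28), but at a ratio of 0.12 among members of at most 30000 UMIs. *Slc34a2*, a sodium-phosphate cotransporter particular to TAL among these tubule types, stood at 57.2 and 27.6 (-1.05, -1.30 to -0.81). *Lbp*, the lipopolysaccharide-binding protein, and *Aoc1*, a diamine oxidase, had ratios of -1.11 and -0.97. *Sox17*, an endothelial and arterial transcription factor, had 176 UMIs in 28 and 89 in 18 members. The 6 endothelial markers summed to 145 and 97.6 CPM. *AY036118*, a noncoding RNA, and *Lars2* had negative ratios in each of the 5 other cell types as well, with *AY036118* at -0.94 in distal convoluted tubule cells and -1.04 in macrophages. The noncoding RNAs *Gm26917* and *Gm42418*, which the authors linked to ribosomal RNA contamination, were left out of the ranking. Together they made up 0.483% of UMIs in Cre- and 0.290% in PHDTiEC members. Whether the lower *AY036118* level has the same source was not tested.

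*Tef*, *Dbp* and *Usp2* among the higher genes are known outputs of the circadian clock, so a list of 21 clock genes was drawn up after these values were seen. In the clock, ARNTL (BMAL1) and CLOCK bind E-boxes and drive the Per, Cry, Nr1d, *Dbp*, *Tef* and *Hlf* genes. The PER and CRY proteins feed back on ARNTL and CLOCK, the NR1D proteins repress *Arntl*, and DBP, TEF and HLF act through D-boxes on genes such as *Per3*. The TAL is among the kidney segments with a known clock. Promoters of *Per3* and *Tef*, 2 of the genes past the fold, are given for the motifs they hold. They give 120 bases each, the first of them 240 bases before the start site for *Per3* and 200 for *Tef*, from RefSeq (GRCm38.p6), written 5′ to 3′ on the gene's strand, with E-boxes (CACGTG) or D-boxes (TTATGTAA) in capitals, both strands searched.
*Per3*, D-boxes starting 205 and 158 bases before the start site, chr4:151044786-151044905, minus strand: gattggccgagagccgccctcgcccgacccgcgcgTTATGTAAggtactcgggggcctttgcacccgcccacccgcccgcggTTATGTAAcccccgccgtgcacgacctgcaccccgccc
*Tef*, E-box starting 138 bases before the start site, chr15:81811214-81811333, plus strand: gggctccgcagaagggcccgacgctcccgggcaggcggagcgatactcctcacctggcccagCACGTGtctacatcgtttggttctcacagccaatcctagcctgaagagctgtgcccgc
In the 250 bases before the start site, 6 of the 22 promoters of the 17 clock genes with an entry held the E-box and 1 the D-box. Of all 32851 promoters, 6.02% and 0.819% held them. Of the other clock genes past the fold, *Arntl*, *Cry2*, *Dbp* and *Usp2* held neither motif there, and a promoter of *Per1* held the E-box. *Tef* has another promoter, not shown, with an E-box 127 bases before its start site. A match describes the letters only.

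In TAL cells 15 of the 21 clock genes were measured, of which 6 were past the fold upward and 1 downward, with a median ratio of 0.46. *Tef*, *Dbp* and *Usp2*, which prompted the list, are 3 of the 6. Without them 12 genes were measured, 3 higher and 1 lower past the fold, with a median of 0.42. *Tef* stood at 9.79 CPM (7.52 to 12.5) in Cre- and 29.0 (25.4 to 33.0) in PHDTiEC, and was seen in 47 and 126 members. *Dbp* stood at 15.1 (12.2 to 18.4) and 37.5 (33.4 to 42.0), in 63 and 131 members. *Usp2*, a deubiquitinase, stood at 52.7 and 121.2. Of the repressor genes, *Per3* stood at 7.30 and 17.2 (1.24, 0.75 to 1.75), *Cry2* at 7.30 and 14.7 (1.01, 0.51 to 1.53) and *Per1* at 10.1 and 15.7 (0.64, 0.19 to 1.09). *Per1* was under the fold in 3 of 12 settings and *Per3*, at 0.57, as a mean over members. *Nr1d1* and *Nr1d2* had ratios of 0.42 and 0.47. The repressor *Nfil3* was equal, at 16.3 and 16.3 CPM. *Per2* (9 and 41 UMIs), *Hlf* (13 and 54) and Ciart (1 and 8) were under the limit of 100 UMIs, as was *Cry1* (33 and 32), at 5.13 and 4.01 CPM. *Arntl*, the activator, was lower, at 12.7 (10.1 to 15.8) and 6.90 (5.20 to 8.98), a ratio of -0.88 (-1.40 to -0.37).

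Several of these genes had the same sign in other cell types of these libraries. The ratio of *Arntl* was -0.60 in distal convoluted tubule, -0.92 in proximal tubule, -0.56 in endothelial and -0.22 in macrophage barcodes. *Per1* stood at 0.57, 1.22, 0.81 and 0.52 in the same order, and *Dbp* at 0.66, 1.43, 0.42 and 0.61. *Tef* stood at 0.91, 0.20, 0.81 and 0.67. *Usp2* differed among types, at 0.71, 0.12, -0.24 and 0.44. So did *Nr1d1*, at 0.34, -0.50 (-0.75 to -0.26), -0.07 and 0.37. The 2 libraries were 2 mice, and the hour of tissue collection is not given in the sources used here, so genotype and mouse cannot be told apart for this pattern. A second list drawn up after the values, 10 genes that glucocorticoids induce, had 9 measured with a median of 0.47 and 2 past the fold, *Tsc22d3* and *Per1*, the latter on both lists. Without *Per1* the median of 8 genes was 0.43 with 1 past the fold. *Tsc22d3* stood at 27.2 and 44.2 CPM (0.70, 0.43 to 0.97), and was at 0.41 with the UMI gate, 0.76 with the share gate and 0.56 as a mean over members. In the same list stood *Klf9* at 151 and 215 (0.51), *Sgk1* at 21.7 and 32.4 (0.57) and *Fkbp5* at 25.9 and 36.0 (0.47). The rest were *Errfi1* (0.39), *Cebpd* (0.21), *Dusp1* (0.19) and *Pdk4* (-0.31). In proximal tubule cells 7 of 9 measured genes of this list had ratios above 0, with *Klf9* (-0.13) and *Fkbp5* (-0.15) below it.

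**Figure D4:**
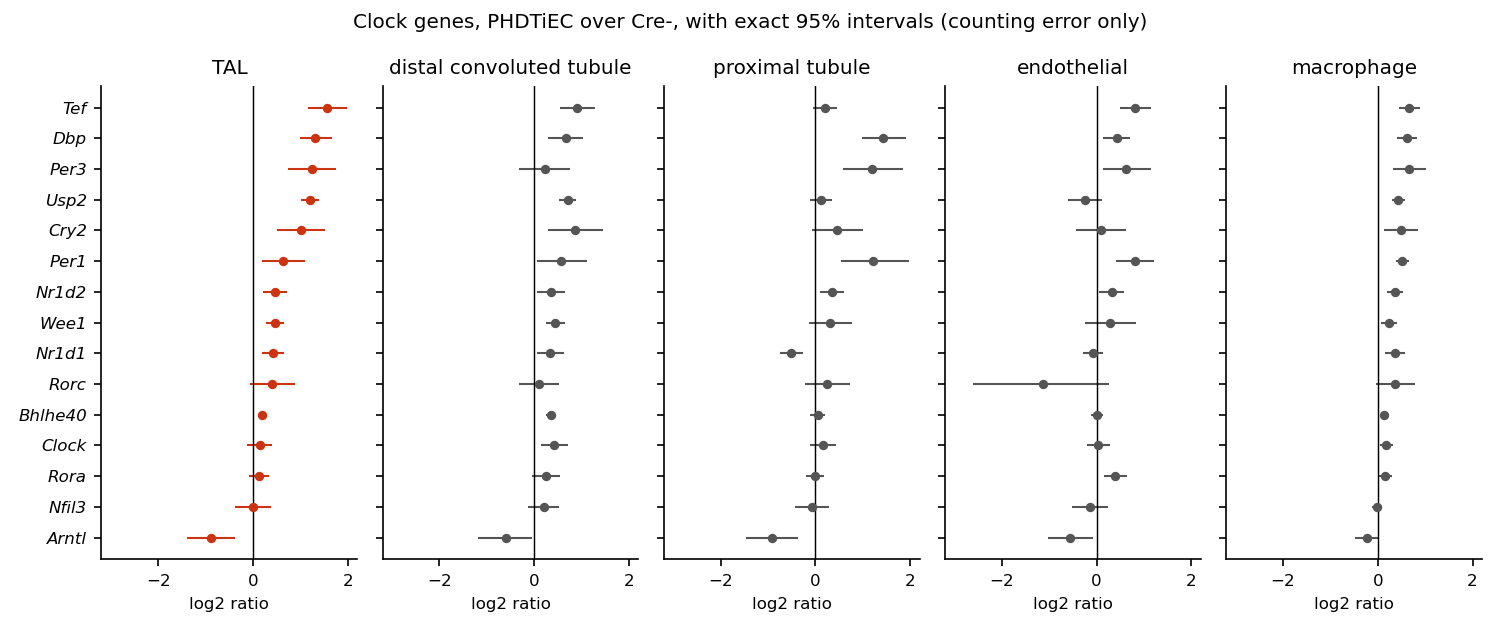
Log2 ratio (PHDTiEC over Cre-) of the 15 clock genes measured in TAL cells, in TAL cells and in 4 other cell types of the same libraries, with exact 95% intervals. *Arntl* lies left of 0 in all 5 types, and *Dbp*, *Per1* and *Per3* lie right of 0 in all 5.

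Members differed among themselves along the claudin pattern of the segment, in which deeper TAL is known to build pores of claudin-10 and cortical TAL pores of claudin-16 and claudin-19. By gates of 2 UMIs, 77.9% of Cre- and 81.2% of PHDTiEC members held both kinds, 15 and 11 members held *Cldn10* only, and 35 and 32 held *Cldn16* or *Cldn19* only. These shares move with depth, since after thinning to 2000 UMIs 24.6% and 26.2% held both. Between the exclusive classes, *Irx1* stood at 104 CPM in *Cldn10* only and 19.2 in *Cldn16* or *Cldn19* only members of Cre-, and at 174 and 10.4 in PHDTiEC. These levels rest on 16 and 9 UMIs in Cre- and 16 and 6 in PHDTiEC. *Igfbp7*, *Serpinh1*, *Scin*, *Sdc1*, *Psma5*, *Myl12a* and *Ldhb* were also higher in the *Cldn10* only class in both libraries. In PHDTiEC the lower bounds of the log2 ratio came as near 0 as 0.001 (*Ldhb*) and 0.02 (*Sdc1*). *Sdc1* rested on 23 Cre- and 16 PHDTiEC UMIs in the *Cldn10* only class. *Ggt1*, *Sostdc1*, *Sult1d1*, *Sox9*, *Id2*, *Nudt4* and *Wfdc2* were lower there, with *Sostdc1*, a BMP and WNT antagonist, at 104 and 767 in Cre- and at 152 and 432 in PHDTiEC.

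A wider split chosen after these values set 44 Cre- and 37 PHDTiEC members with no *Cldn10* UMI against 156 and 155 members with at least 4 *Cldn10* UMIs per 10000. Members without *Cldn10* had more *Pth1r*, at 599 against 333 CPM in Cre- and 597 against 310 in PHDTiEC. They also had more *Kcnj10*, a basolateral potassium channel, at 80.4 against 22.4 and 65.8 against 27.8. *Tmem52b* was at 621 against 117 and 762 against 244, and the Notch ligand *Jag1* at 63.9 against 20.7 and 72.4 against 27.6. Cldn10-rich members had more *Irx1* (157 against 25.6 in Cre-, 171 against 9.87 in PHDTiEC), *Irx2* (164 against 38.4, 173 against 18.1) and *Ptger3* (99.8 against 21.9, 94.3 against 11.5). *Eprn*, *Tnfaip2*, *Ndufs6*, *Car2* and *Anxa2* were higher in Cldn10-rich members as well. *Cldn16* and *Cldn19* did not go together in this split. *Cldn16* stood at 221 against 143 CPM in Cre- (0.63, 0.33 to 0.92) and 184 against 151 in PHDTiEC (0.28, -0.02 to 0.57). *Cldn19* was lower in members without *Cldn10*, at 201 against 246 and 176 against 224. The endothelial genes *Egfl7* (52.98 against 15.4, 98.7 against 12.8) and *Ramp2* (42.0 against 13.4, 87.2 against 15.7) were higher there, and their part in the other ratios was not tested. The ratio of *Pth1r* between the classes was 0.85 (0.67 to 1.03) in Cre- and 0.95 (0.78 to 1.12) in PHDTiEC. *Egf* did not repeat, with 601 against 116 CPM in Cre- and 83.9 against 204 in PHDTiEC, and in Cre- 3 members held 72.0% of the *Egf* UMIs of the class without *Cldn10*. Members without *Cldn10* were also shallower, with median UMIs of 11321.5 against 16703.5 in Cre- and 10142 against 26838 in PHDTiEC.

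**Figure D5:**
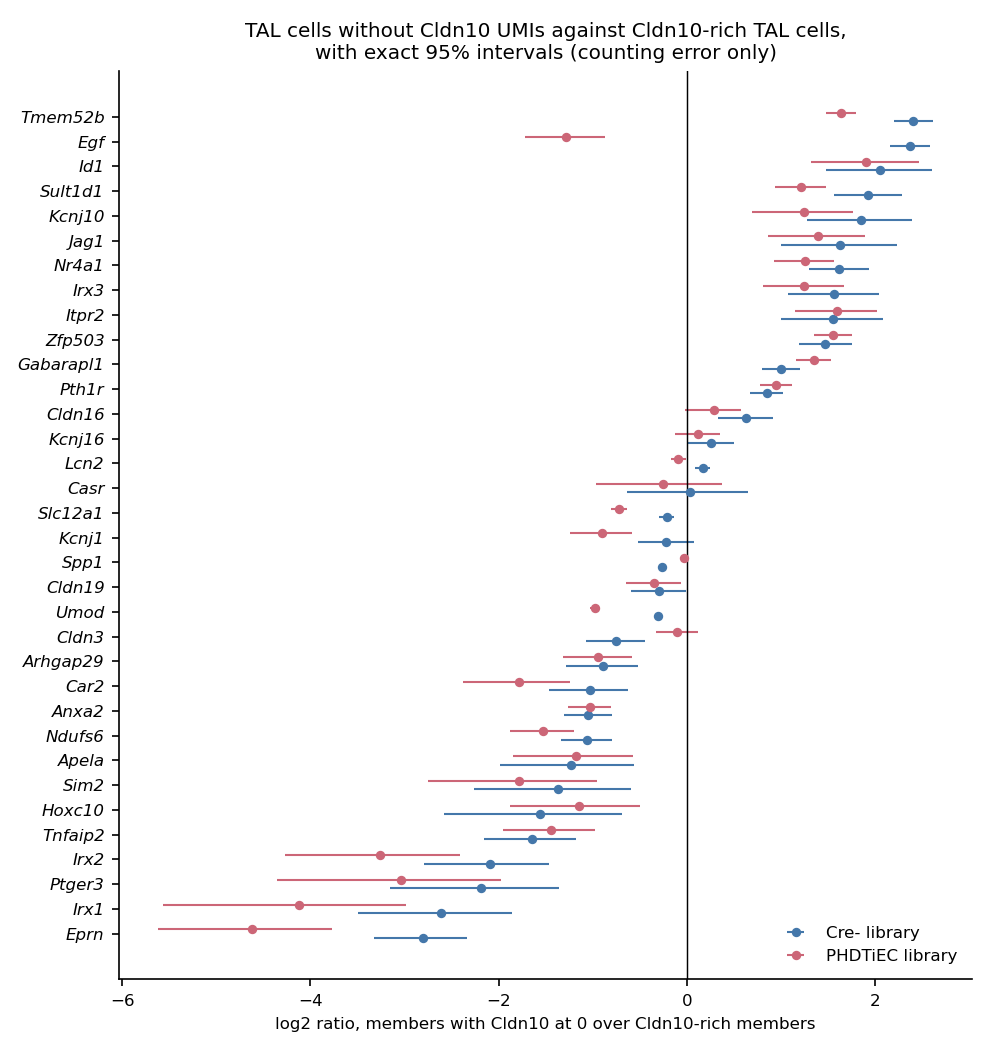
Log2 ratio of members without *Cldn10* UMIs (44 in Cre-, 37 in PHDTiEC) over Cldn10-rich members (156 and 155), within each library, with exact 95% intervals. *Pth1r*, *Kcnj10* and *Tmem52b* lie right of 0 and *Irx1*, *Irx2*, *Ptger3* and *Eprn* left of 0 in both libraries, and *Egf* lies on opposite sides.

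A few members carried *Nos1*, the neuronal nitric oxide synthase of the macula densa. In 12 Cre- and 13 PHDTiEC members at least 2 *Nos1* UMIs were found, against 263 and 256 members with none. This split was also chosen after seeing the data. *Pappa2*, a protease of the macula densa, stood at 113 CPM in the *Nos1* members and 2.25 in the others of Cre-, and at 283 and 6.78 in PHDTiEC. *Ptgs2*, the inducible cyclooxygenase COX-2, stood at 85.5 against 2.43 and 37.5 against 7.47, and the guidance receptor *Robo2* at 39.7 against 1.91 and 29.7 against 1.94. *Bmp3*, *Tmem158*, *S100g*, *Sfrp1* and *Hspb1* were higher in these members of both libraries. *Egf* was lower in them, at 29.0 against 164 in Cre- and 40.7 against 165 in PHDTiEC. *Nos1* members were deep, with median UMIs of 52799 and 49772. The rule leaves such cells out in part, since 6 of 17 Cre- and 10 of 38 PHDTiEC barcodes that failed only its *Umod* condition held at least 2 *Nos1* UMIs. Of the 7 macula densa genes 4 were measured over all members, 1 of them higher and 1 lower past the fold. *Nos1* was the lower one, with 60 and 49 UMIs (-0.60, -1.18 to -0.03). This call rested on the *Umod* condition, since without it *Nos1* stood at 12.6 CPM in Cre- and 15.7 in PHDTiEC, the other direction. It was also lost with free RNA subtracted, as means over members, with the share gate and with *Slc12a3* and *Aqp2* each under 3 UMIs. *Pappa2* was the higher one, with 87 UMIs in 18 and 231 UMIs in 41 members (1.10, 0.74 to 1.47). *Ptgs2* had 70 and 82 UMIs.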

How the data were processed

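Kidney cells of 1 Cre- and 1 PHDTiEC mouse were profiled with 10x 3′ v3.1 chemistry. The authors deposited unfiltered UMI counts per gene and barcode made with Cell Ranger (version 4 in the file header) on mm10. Barcodes with 2000 to 100000 UMIs, at least 200 genes, at most 50% mitochondrial UMIs and a complexity of at least 0.8 (log10 genes over log10 UMIs) were kept. No doublet caller was run. Members of each library were summed, and the log2 ratio of counts per 1000000 UMIs (CPM) was taken for genes with at least 100 UMIs, with an exact interval from the split of the UMIs. A gene was called past 1.5-fold, without a test. The self-test ran on simulated data. Python 3.11.15, numpy 2.4.6, scipy 1.17.1, pandas 2.3.3, matplotlib 3.10.9, R 4.3.3 and edgeR 4.0.16 (TMM factors only) were used. Genes were named from the rule, the floxed genes and the lists, and as the 12 highest and 12 lowest by the interval bound nearest 0, leaving out genes seen in under 20 members or with over 20% of their UMIs in 1 member. The members and lists were chosen with earlier results of these data known. The clock and glucocorticoid lists, the *Cldn10* and *Nos1* splits and the exclusion of members with mural or principal cell markers were chosen after seeing the data. Alternatives covered depth, mitochondrial share, scaling, gene minimum, free RNA and the *Umod* condition. Some genes are not reported here.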

Additional observations from a re-analysis of the deposited data

How the results depend on the processing

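No paired analysis was possible because each genotype was 1 library. With members of at most 30000 UMIs the log2 ratio of the TAL share was -0.48. Genes higher and lower were 207 and 164 with TMM factors, 602 and 162 as means over members, 1007 and 432 with a minimum of 20 UMIs and 64 and 25 with 500, and 204 and 103 without mural or principal marker members (5 UMIs). List medians moved as follows. At a mitochondrial share of at most 20%, secreted proteins stood at -0.033 and the mitochondrial genome at -0.42. At most 30000 UMIs gave salt transport 0.0138, secreted proteins -0.24, tubular injury 0.10, nuclear OXPHOS -0.22, mitochondrial genome -0.49, MHC class II 0.45 and ribosome -0.11. Without the *Umod* condition secreted proteins stood at -0.18. Without mitochondrial genes in the scaling the mitochondrial genome stood at -0.63 and ribosome at -0.13. TMM factors gave salt transport 0.0296, secreted proteins -0.21, nuclear OXPHOS -0.26, mitochondrial genome -0.69, immediate early 0.16 and ribosome -0.19. Means over members gave secreted proteins -0.29, mitochondrial genome -0.49, MHC class II -0.16 and immediate early 0.21. With free RNA subtracted (1.69% of Cre- and 3.73% of PHDTiEC member UMIs) MHC class II stood at -1.73. A minimum of 20 UMIs gave cell cycle 0.88, and 500 gave secreted proteins -0.24. Without mural or principal marker members (5 UMIs) tubular injury stood at 0.0572, mitochondrial genome at -0.39, immediate early at 0.14 and ribosome at -0.13. Without the rule's own genes, chosen after seeing the data, salt transport (without *Slc12a1*) stood at 0.14 and secreted proteins (without *Umod*) at 0.0354, against -0.10 with it. Thinned to 2000 UMIs, the share with *Cldn10* only was 18.5% in Cre- and 17.0% in PHDTiEC, the share with *Cldn16* or *Cldn19* only was 7.25% in Cre-, and the share with both was 24.6% and 26.2%. Without members with 5 or more mural or principal marker UMIs per 10000, *Hsd11b2* not used (added after seeing the data), secreted proteins stood at -0.36. Of 528 values for 44 genes (the 24 ranked genes and 20 others) 416 stayed within the counting error of the reported value, 109 moved further and 3 calls changed sign, *Sparcl1* (-1.03 and -0.77 without the marker members by UMIs and by share) and *Sprr1a* (0.12 at most 30000 UMIs). Among list genes outside these 44, *Ednrb*, *Igfbp3*, *Nos1*, *Vim* and *Cenpf* also changed sign in at least 1 setting. The causes were not tested. With 1 mouse per genotype, the spread between mice is unknown, and depth limits genes under 100 UMIs.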
